A study of Mus musculus with 115 samples.

Results

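The binding motif of REST was placed in 17 of the 275 constructs of this amplicon NOMe-seq series, and each of the 17 is described here. They were found by name. There was 1 REST construct in the unphased class, 1 in nuc (named nucleosomal in the files), 1 in non_nuc (non_nucleosomal), and 14 in the tiles class, with 7 motif positions in each of 2 sequence backbones named CTCF and REST. All constructs had been inserted at the recombinase-mediated cassette exchange locus of mouse embryonic stem cells labelled 129S6/SvEvTac, and the labels give no treatment for the libraries used here. The REST_r construct was the reference for 11 of the 17. The name ends in _r and the labels do not say what this stands for. In unphased, nuc and non_nuc the construct without a motif was a further reference, and the tiles class has none. REST and REST_r constructs had 2 libraries each in unphased and 3 each in the other classes. The construct CTCF_tile5_REST was also measured in the groups REST_NP and REST_ES, with 3 libraries each. Both groups carry the cell type label embryonic stem cells, and the labels do not spell out NP or ES.

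REST is a zinc finger repressor that keeps neuronal genes silent outside neurons. It binds a long motif known as RE1 and recruits corepressor complexes that carry histone deacetylases. In embryonic stem cells it is well expressed, and its binding sites are known for well ordered nucleosomes on either side. NOMe-seq exposes nuclei to a GpC methyltransferase, which reaches cytosines in open DNA and is kept off by a nucleosome or a bound protein. The deposited value is the fraction of reads methylated at each GCH cytosine (a C after G and before A, C or T), given here in percent. A high value therefore reads as accessible DNA and a low value as covered DNA. The files give no read counts, so the depth behind each value is unknown. Nothing in the labels says whether libraries of a group came from separate cultures, so p-values measure only spread between libraries. The test used, limma, pools that spread over the constructs of a fit, in many fits to a single value. Small p-values therefore do not rest on the libraries of a construct alone.

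Each construct was read in a motif window, the stretch whose GCH sites differ between constructs of its class, and in a flank, the sites within 40 bp on either side. Windows ran from position 127 to 154 of the amplicon in unphased and from 176 to 203 in nuc and non_nuc. The REST motif brought its own pattern of sites into the window. In 16 of 17 REST windows there were 5 GCH sites with steps of 7, 12, 2 and 4 bp, and the unphased window had 4 sites with steps of 7, 14 and 4 bp. All 11 REST_r windows had 4 sites with steps of 7, 8 and 10 bp, so REST and REST_r share their first, second and last site. Of 272 construct windows, 16 held the steps 12, 2 and 4, and these were 16 REST windows and no other. Outside the window the same steps occur in every nuc construct (positions 45 to 63), every non_nuc construct (115 to 133) and every construct of the REST backbone (20 to 38), with or without a REST motif in the window, and the labels do not say what these sites belong to. Methylation was low there too, at 14.1% in nuc REST and 16.9% in non_nuc REST. It was also low without a motif, at 12.3% to 19.6% over these sites in nuc and 19.8% to 26.1% in non_nuc.

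The methylation left in a REST window lay at its edges. The highest site of the window was the first in 12 constructs and the last in 5 of the 17, while the lowest was an inner site in 15. No listed site of the construct without a motif coincides with a REST site inside the window (positions 131, 149 and 154 in unphased and 189 in nuc and non_nuc), so window levels against it compare different positions. Against REST_r the shared sites allow the same position to be read.

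In the unphased class, REST had accessible flanks around a nearly unmethylated window. Flank methylation was 82.3% and 84.5% in the libraries of REST, against 42.7% and 55.3% with REST_r and 41.03% and 42.8% without a motif. No REST library overlapped either reference. The difference was 34.5 percentage points from REST_r (2.33 ± 0.26 on the log2 M-value scale, SE, adjusted p = 5.46e-09 in limma) and 41.5 from no motif (2.73 ± 0.15, SE, adjusted p = 1.48e-43 in limma). Higher flanks were called for 21.4% of 14 pairs with an _r construct and for 14.9% of 121 constructs against no motif. REST and REST_r were read in the same libraries here, whereas the construct without a motif was in another pool, so that pool and motif cannot be told apart in that comparison.

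The window went the other way. It was methylated at 7.08% and 7.82% with REST, against 51.3% and 63.2% with REST_r and 42.4% and 41.7% without a motif. The REST libraries lay below all 4 reference libraries. The window fell by 49.8 percentage points relative to REST_r (adjusted p = 6.37e-15 in limma) and by 34.6 relative to no motif (adjusted p = 4.80e-05 in limma), where lower windows were called for 35.7% of pairs and 25.6% of constructs. At the shared positions 127, 134 and 152, REST had mean methylation of 7.58%, 5.48% and 12.6%, against 56.2%, 59.3% and 55.7% with REST_r. The lowest site of the REST window was position 148, at 4.20%, and its highest flank site was position 101, at 88.5%. Among the 122 unphased constructs the median window was 42.6%, and the REST window was the lowest of all. Constructs list different sites within the window, so this rank compares different positions.

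Site by site, the unphased gain ran nearly the whole amplicon. Single sites of REST were higher than without a motif at 12 of 14 positions, from 22 to 210, and lower at 0 in limma (0 also at an unadjusted p under 0.05), where 6.7% of 1747 construct sites in the class were called higher and 22.6% lower. The gain was steepest downstream of the motif. Position 164 had 83.9% with REST and 33.1% without a motif, and position 210, which is 58 bp from the last REST site, had 68.0% and 34.6%. Upstream the gain was smaller, with 88.5% against 61.6% at position 101 and 63.7% against 54.7% at position 22. The sites not called were the outermost, position 8 with 38.4% with REST and 37.2% without a motif, and position 243 with 31.5% and 34.9%.

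In nuc, REST again had high flanks and a low window. The flank was methylated at 81.0%, 85.0% and 85.9% in the REST libraries, against 54.6%, 43.6% and 44.6% with REST_r and 49.3%, 41.9% and 46.4% without a motif. The groups did not overlap. The flank rose by 36.3 percentage points relative to REST_r (adjusted p = 1.22e-08 in limma) and by 38.1 relative to no motif (2.56 ± 0.21 log2, SE, adjusted p = 8.98e-20 in limma). Higher flanks were called for 83.3% of 6 pairs and 26.1% of 23 constructs. In nuc and non_nuc, REST_r was read in another pool than REST, so that pool and construct cannot be told apart there, while the construct without a motif shared the libraries of REST.

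Most of this gain lay downstream of the motif. Downstream flank sites (213 to 236) averaged 78.7% ± 3.11 with REST, against 21.3% ± 8.51 with REST_r and 17.5% ± 3.11 without a motif (SD, n = 3 each). Upstream (140 to 157) the sequence was already open, and REST averaged 87.9% ± 2.27, against 67.4% ± 4.73 with REST_r and 67.2% ± 4.25 without a motif (SD, n = 3 each). The highest flank site of REST was position 148, at 88.4%.

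The nuc window was methylated at 9.99%, 9.40% and 11.1% with REST, against 44.5%, 30.8% and 29.1% with REST_r and 33.3%, 23.7% and 27.9% without a motif. Every REST library lay below every reference library. The window fell by 24.6 percentage points relative to REST_r (adjusted p = 1.26e-07 in limma, with lower windows in 33.3% of pairs) and by 18.1 relative to no motif (adjusted p = 3.18e-07 in limma, with lower windows in 26.1% of constructs). The shared positions 176, 183 and 201 had 11.7%, 9.15% and 13.98% with REST, against 37.4%, 39.9% and 27.9% with REST_r. Position 195 was the lowest site of the REST window, at 7.79%.

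Beyond the flank, nuc REST showed a reversal of the profile. Of 34 sites compared with the construct without a motif, 11 rose, at positions 132 to 259, and 8 fell, at positions 292 to 353, where 6.39% of 782 construct sites in the class were called higher and 4.35% lower. All 8 listed sites from 292 to 353 were among those that fell. Position 213 had 81.6% with REST and 17.3% without a motif, and position 259, which is 58 bp from the last REST site, still had 57.3% and 24.8%. The next listed site, position 292, was on the other side, with 26.8% with REST and 45.3% without a motif. Position 297 had 32.3% with REST and 72.6% without a motif, and position 313 had 22.2% and 63.4% (adjusted p = 0.000101 and 0.000423 in limma). REST_r had 71.4% and 63.8% at these positions. CTCF, read in the libraries of REST, had 37.4% and 20.9% there. From 292 to 353 its sites ranged from 13.3% (position 337) to 37.4% (position 297), so low levels there were not particular to REST. With the library as a block, position 132 no longer passed (88.2% with REST, 77.8% without a motif, adjusted p = 0.0603 in limma with replicate block) and the other 10 higher and 8 lower sites passed. Position 132 also lost its call without any 1 of the replicates (adjusted p = 0.0554, 0.171 and 0.198 in limma), as did position 292 (0.0610, 0.0632 and 0.196). Positions 140 and 150 lost theirs without replicate 2 (0.0870 and 0.0511) and without replicate 3 (0.0958 and 0.0583).

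In non_nuc the construct without a motif was itself open across the insertion, and the REST window was low within it. The window was methylated at 6.66%, 19.8% and 12.8% with REST, against 67.9%, 67.9% and 60.9% with REST_r and 61.8%, 68.8% and 70.7% without a motif. REST and the references were far apart in every library. The window fell by 52.5 percentage points relative to REST_r (adjusted p = 6.03e-09 in limma) and by 54.1 relative to no motif (−3.77 ± 0.34 log2, SE, adjusted p = 1.51e-17 in limma). Lower windows were called for 83.3% of the 6 pairs and 60.9% of the 23 constructs. At positions 176, 183 and 201 methylation was 11.7%, 12.2% and 17.9% with REST, against 68.1%, 72.4% and 55.5% with REST_r. The lowest site of the REST window was position 195, at 11.2%.

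The non_nuc flank gained less than the window lost. It was methylated at 76.3%, 79.5% and 84.3% with REST, against 62.8%, 64.3% and 59.5% with REST_r and 54.4%, 64.5% and 62.7% without a motif, with no overlap. The flank rose by 17.8 percentage points relative to REST_r (adjusted p = 0.000334 in limma, with higher flanks in 50% of pairs) and by 19.5 relative to no motif (adjusted p = 1.72e-05 in limma, with higher flanks in 21.7% of constructs). As in nuc, the downstream side carried the gain. Downstream flank sites averaged 75.8% ± 4.72 with REST, against 35.3% ± 2.93 with REST_r and 37.1% ± 7.46 without a motif (SD, n = 3 each). Upstream the averages were 83.2% ± 4.10 with REST, 82.4% ± 2.07 with REST_r and 78.1% ± 4.86 without a motif (SD, n = 3 each), and the highest flank site of REST was position 150, at 83.8%.

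Single non_nuc sites passed the test only on the downstream side. Of 30 sites, 6 were higher with REST than without a motif and 0 lower in limma (1 lower at an unadjusted p under 0.05), where 8.55% of 690 construct sites in the class were called higher and 0.29% lower. The 6 are the listed sites from 213 to 259. Position 221 had 81.6% with REST and 41.8% without a motif, and position 259 had 57.9% and 24.5%, a call lost without replicate 3 (adjusted p = 0.0621 in limma). Position 292 had 30.8% with REST and 22.4% without a motif, and did not pass.

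Downstream, the open stretch ended between the same distances in the 3 classes. Counting outward from the last REST site, with a limit of 50% chosen after the data were seen, mean methylation stayed at 50% or more to a site 58 bp away in unphased (position 210, 68.0%), nuc (position 259, 57.3%) and non_nuc (position 259, 57.9%). The next listed site, 91 bp away, was under 50% in each, at 31.5%, 26.8% and 30.8%. No site lies between them, so the edge itself is not resolved. All 3 classes list sites at 58 and 91 bp, so edges anywhere in this gap give the same distances. The CTCF construct of each class changed between the same positions. It had 75.8% in unphased, 74.5% in nuc and 65.4% in non_nuc, then 34.5%, 31.2% and 31.8% at the next site. The distances are thus not particular to REST. In the constructs without a motif and with REST_r, the first downstream site was already under 50% in all 3 classes.

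The effect of REST in nuc and in non_nuc was compared after the data were seen, as the difference between contexts of its difference from no motif. The flank gain with REST was 38.1 percentage points in the nuc context, against 19.5 for non_nuc. These differed by 1.20 ± 0.35 (log2, SE, adjusted p = 0.00359 in limma). Without replicate 2 the adjusted p was 0.239 and without replicate 3 it was 0.0693, both by limma. A difference was called for 17.4% of the 23 motifs. The window difference was −18.1 percentage points for nuc, against −54.1 for non_nuc. These differed by 2.07 ± 0.43 (log2, SE, adjusted p = 4.28e-05 in limma), with 34.8% of the motifs called. The level of the REST construct itself was 83.9% ± 2.61 at the nuc flank and 80.04% ± 4.03 at the non_nuc flank, with windows of 10.2% ± 0.886 and 13.1% ± 6.56 (SD, n = 3 each). Without a motif the flanks were 45.9% ± 3.75 and 60.5% ± 5.39 and the windows 28.3% ± 4.80 and 67.1% ± 4.66 (SD, n = 3 each). Each window without a motif is 1 site, position 189, which is not a REST site, so the window comparison rests on that site in each context.

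At single sites the contexts differed for REST at 6 of 15 positions compared, where 5.8% of 345 motif sites were called. Positions 213 and 221 gained more in nuc, by 64.3 and 63.2 percentage points, against 38.2 and 39.7 in non_nuc (adjusted p = 0.0125 and 0.0354 in limma). The sites 292, 297, 303 and 313 fell in nuc by 18.5, 40.3, 33.3 and 41.2 percentage points, while in non_nuc the differences from no motif were 8.41, −3.81, −0.175 and −9.03. Without replicate 3 none of the 6 single sites passed, with adjusted p-values in limma between 0.116 and 0.603, and without replicate 2 positions 213 and 221 did not (0.134 and 0.304). At position 297 the REST levels were close, 32.3% in nuc and 37.7% in non_nuc, against 72.6% and 41.5% without a motif.

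In the tiles class the window moved along the amplicon in steps of about 40 bp, from position 53 in tile 1 to 293 in tile 7. The 5 constructs at tiles 3 and 4 of both backbones and tile 5 of the CTCF backbone were in pool 6, where replicate 2 stands apart. The tiles libraries share a stretch of low methylation at positions 19 to 38, which averaged 20.7%, 39.2% and 12.1% in the 3 libraries of pool 6. In the 39 other tiles libraries it ranged from 3.29% to 29.7%, with a median of 10.9%. Replicate 2 of pool 6 was also compressed at the top, with its 90th percentile of site methylation at 71.5%, against 93.04% and 91.02% in the other libraries of the pool. What raised the low stretch was not tested. The other 9 REST constructs were in pools 2 and 4.

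Outside pool 6, REST was read at tiles 1, 2, 6 and 7 of both backbones and tile 5 of the REST backbone. Their means ranged from 4.49% to 7.42%, with a median of 5.84%, over 9 constructs, and single libraries from 3.23% to 9.57%. In the 5 pool 6 constructs window means ranged from 18.9% to 27.2% and single libraries from 4.94% to 48.9%. Replicate 2 had the highest window in all 5 and the highest low stretch in 4 of them, CTCF_tile3_REST being the exception. In CTCF_tile5_REST the window was 22.1%, 48.9% and 9.49% in the 3 libraries, beside 20.5%, 44.3% and 6.51% at the low stretch. In REST_tile4_REST it was 14.2%, 37.6% and 4.94%, beside 8.25%, 51.4% and 18.4%. Outside pool 6, REST_tile1_REST had a window of 8.96%, 5.25% and 8.04%, beside 11.4%, 21.0% and 26.2% at the low stretch. The part of the raised low values in the window level was not tested.

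Of the 14 tile constructs, 8 have a REST_r partner, 3 in the same pool and 5 with REST in pool 6 and REST_r in another pool. For these 5 pairs, pool and construct cannot be told apart. Flanks of REST were higher in 7 of 8 pairs, where 56.2% of 32 tile pairs were called higher. Windows were lower in 5 of 8, where 56.2% of the pairs were called lower. Without pool 6, the 3 remaining pairs passed at both flank and window.

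At tile 2 the REST_r window was open and the REST window was low. In CTCF_tile2_REST the window was methylated at 8.34%, 6.98% and 6.25%, against 88.5%, 84.5% and 85.4% with REST_r. In REST_tile2_REST it was 4.16%, 3.83% and 5.48%, against 83.1%, 80.5% and 81.7%. The groups were far apart in both backbones, with differences of −6.09 ± 0.26 and −6.25 ± 0.25 (log2, SE, adjusted p = 2.39e-06 for both in limma), and REST_tile2 was the lowest of the 32 pairs. The lowest window sites were position 118 in the CTCF backbone (3.37%) and position 114 in the REST backbone (1.90%).

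Tile 2 flanks gained on the downstream side. The flank averaged 91.6% ± 1.60 with REST and 78.2% ± 1.502 with REST_r in the CTCF backbone (adjusted p = 0.00140 in limma), and 88.4% ± 4.14 and 75.4% ± 3.05 in the REST backbone (adjusted p = 0.00687 in limma; SD, n = 3 each). Upstream sites (62 to 81) were near 90% with either, 93.0% ± 3.51 with REST and 92.5% ± 1.17 with REST_r in the CTCF backbone. Downstream sites (122 to 157) averaged 90.6% ± 0.872 with REST and 67.9% ± 1.99 with REST_r there, and 88.04% ± 5.61 and 66.4% ± 3.78 in the REST backbone (SD, n = 3 each). The highest flank sites of REST were position 122 in the CTCF backbone, at 93.7%, and position 62 in the REST backbone, at 90.7%.

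Single tile sites were compared with REST_r after the data were seen, with 11.7% of 1034 construct sites called higher and 5.8% lower. In REST_tile2_REST 8 sites rose, at positions 122 to 164, and 8 fell, which were the 3 shared window sites and 5 distal sites at positions 256 to 310. Position 164 had 83.0% with REST and 47.8% with REST_r, and position 310 had 19.8% and 47.3% (adjusted p = 0.0175 for both in limma). In CTCF_tile2_REST 9 sites rose, at 122 to 196, and beyond the window position 299 fell to 17.3% with REST, against 38.9% with REST_r (adjusted p = 0.0215 in limma).

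At tile 3, where REST was in pool 6, windows were lower in both backbones. CTCF_tile3_REST had 31.4%, 31.7% and 6.03%, against 67.9%, 69.1% and 62.7% with REST_r. REST_tile3_REST had 24.3%, 38.5% and 18.1%, against 58.6%, 52.2% and 55.3% with REST_r. Neither backbone showed overlap between the groups (adjusted p = 0.0169 and 0.0137 in limma). The CTCF backbone lost the call without replicate 1 or 2 (adjusted p = 0.0927 and 0.0686 in limma) and the REST backbone without replicate 1 or 3 (0.117 and 0.0566).

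Tile 3 flanks of REST were spread widely in pool 6. In the CTCF backbone they were 94.5%, 67.8% and 74.1%, against 74.3%, 73.0% and 69.9% with REST_r, and the groups overlapped (adjusted p = 0.279 in limma). In the REST backbone they were 84.2%, 70.7% and 87.1%, against 66.1%, 62.8% and 62.2% with REST_r, with no overlap (adjusted p = 0.0153 in limma, 0.0676 without replicate 1 and 0.0800 without replicate 3). Position 129, directly before the window, was the lowest flank site, at 49.3% in the CTCF backbone and 45.7% in the REST backbone. REST_r had 65.3% and 55.4% at that position. At tile 4, where position 129 lies 44 bp from the first REST site, it had 54.9% and 52.5% with REST and 54.8% and 52.7% with REST_r. A low level there was thus not particular to tile 3. The highest flank site of REST at tile 3 was position 94 in both backbones, at 86.2% and 89.9%. Its lowest window sites were position 154 (18.2%) and position 152 (21.1%).

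At tile 4 the flanks of REST rose in both backbones, while the windows did not pass. The flank of CTCF_tile4_REST was 78.6%, 61.1% and 87.5%, against 31.7%, 35.4% and 34.5% with REST_r (2.67 ± 0.47 log2, SE, adjusted p = 0.00140 in limma). That of REST_tile4_REST was 88.3%, 55.4% and 83.6%, against 24.2%, 26.7% and 27.0% with REST_r (3.28 ± 0.56 log2, SE, adjusted p = 0.00140 in limma), which was the largest flank difference of the 32 tile pairs. REST lay above REST_r in every library of both backbones. Windows with REST_r were at 27.5% ± 3.59 and 17.1% ± 0.814, and REST had 27.2% ± 13.9 and 18.9% ± 16.8 (SD, n = 3 each, adjusted p = 0.862 for both in limma). REST was in pool 6 in both backbones, and its windows were widely spread. Replicate 2 lay above every REST_r library, at 42.04% and 37.6%. Replicate 3 lay below every REST_r library, at 14.4% and 4.94%. With this spread, the missing call does not show that the windows were equal.

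At single tile 4 sites, position 220 had 73.4% with REST and 21.6% with REST_r in the CTCF backbone, and 71.8% and 14.7% in the REST backbone (adjusted p = 0.0175 and 0.0112 in limma). Gains at 168, 220, 228 and 243 passed in both backbones. In the low stretch position 23 of CTCF_tile4_REST was also called, with 25.8% with REST in pool 6 and 2.83% with REST_r in another pool, and such calls came up at low stretch sites of CTCF_tile5_REST and REST_tile3_REST as well. A single distal site fell, position 304 of REST_tile4_REST, to 40.1%, against 65.4% with REST_r. The lowest window sites of REST were position 180 (23.0%) and position 198 (15.9%), and the highest flank site was position 136 in both backbones, at 78.2% and 80.5%.

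Tile 5 could be read within 1 pool in the REST backbone. REST_tile5_REST had flanks of 67.4%, 67.5% and 67.5%, against 44.2%, 36.1% and 37.9% with REST_r (adjusted p = 0.00140 in limma). Its window was 7.35%, 4.88% and 9.57%, against 41.3%, 16.4% and 27.3% with REST_r (adjusted p = 0.0137 in limma, 0.0927 without replicate 1). Flanks and windows did not overlap with those of REST_r, though the REST_r window was itself widely spread. At the shared position 220 REST had 3.62%, the lowest of its window, and REST_r 29.0% (adjusted p = 0.0112 in limma). Gains passed at 192, 200, 243, 253 and 266, and the highest flank site was position 256, at 78.8%.

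In the CTCF backbone at tile 5, REST was in pool 6. Its flank was 78.6%, 61.6% and 69.1%, against 29.99%, 36.6% and 39.7% with REST_r, with no overlap (2.06 ± 0.36 log2, SE, adjusted p = 0.00140 in limma). The window of REST overlapped that of REST_r, at 23.7%, 28.0% and 24.5% (adjusted p = 0.862 in limma). The lowest window site of REST was position 220, at 22.4%, and the highest flank site position 256, at 78.6%.

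Tiles 1, 6 and 7 have no REST_r partner and are given as levels. The tile 1 window was 6.72% ± 1.87 in the CTCF backbone and 7.42% ± 1.93 in the REST backbone, with flanks of 88.1% ± 1.68 and 85.8% ± 4.9996 (SD, n = 3 each). Tile 6 windows were 5.84% ± 0.915 and 5.06% ± 1.12, with flanks of 70.7% ± 1.21 and 61.5% ± 3.04 (SD, n = 3 each). Tile 7 windows were 4.89% ± 0.253 and 4.58% ± 1.47, with flanks of 80.2% ± 0.264 and 76.6% ± 3.12 (SD, n = 3 each).

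Windows were thus low at both ends of the amplicon while flank levels varied more. The flanks do not cover the same sides. Tile 1 had 1 upstream and 5 downstream flank sites, tile 6 had 4 and 3, and tile 7 had 3 upstream only. In CTCF_tile6_REST the upstream side averaged 61.7% and the downstream side 82.6%, so side and motif position cannot be told apart here. The lowest window sites in the CTCF and REST backbones were positions 74 (4.68%) and 72 (4.68%) at tile 1, 272 in both at tile 6 (3.71% and 2.73%), and 300 (3.03%) and 312 (2.85%) at tile 7. The highest flank sites were position 90 at tile 1 (90.3% and 89.5%), 304 at tile 6 (86.9% and 78.6%) and 276 at tile 7 (86.8% and 83.4%).

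Around REST at tiles 6 and 7 the upstream DNA held a long low stretch. In CTCF_tile6_REST, sites at or above 50% reached 28 bp upstream of the first REST site, and the lowest site lay 85 bp upstream, position 168 at 12.7%. In REST_tile6_REST the same position had 15.6%. At tile 7 position 168 was again the lowest upstream site, 125 bp from the first REST site, at 10.8% and 12.1%. With REST_r at tile 5 that position had 27.3% and 30.5%, and with REST at tile 4, where it lies directly before the window, 76.4% and 75.8%. The level of a fixed site thus ranged widely between constructs. REST at tile 4 was in pool 6 and REST at tiles 6 and 7 in pools 2 and 4. Between tile 4 and these tiles, pool and motif position cannot be told apart. Within pool 4, position 168 had 44.3% in REST_tile5_REST, against 15.6% in REST_tile6_REST and 12.1% in REST_tile7_REST. Every library of REST_tile5_REST lay above every library of the other constructs there. REST_r at tile 4 had 35.0% and 22.2% at position 168. The REST_r and REST constructs at different tiles were not tested against each other.

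Between CTCF and REST backbones, flanks of REST differed by −1.87 to 9.17 percentage points over the 7 tiles and windows by −3.98 to 19.5, the last at tile 5, where only the CTCF backbone construct was in pool 6. At tiles 1, 2, 6 and 7 the CTCF backbone was in pool 2 and the REST backbone in pool 4, so that pool and backbone cannot be told apart. This comparison was added after the data were seen, and none of the 7 passed in limma at flank or window (1 flank and 2 windows had an unadjusted p under 0.05), where 0% of 51 tile and motif combinations was called in either region. The smallest adjusted p for REST was 0.150 at the flank of tile 6, with 70.7% in the CTCF backbone and 61.5% in the REST backbone. At tile 5 the adjusted p for the window was 0.279 in limma.

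CTCF_tile5_REST was read again in the groups REST_NP and REST_ES, whose 69 values each are given to 1 decimal of a fraction, so that levels move in steps of 10 percentage points per site. Over the 4 flank sites listed in all groups (192, 243, 253 and 266), methylation was 32.5%, 27.5% and 37.5% in REST_NP and 72.5%, 57.5% and 62.5% in REST_ES. Over 4 window sites (213, 220, 234 and 238) it was 22.5%, 15% and 32.5% in REST_NP and 7.5%, 7.5% and 5% in REST_ES. REST_NP lay below REST_ES in every library at the flank and above it at the window. These levels are given without a test.

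Of 23 sites listed in all groups, 4 were lower in every REST_NP library than in every REST_ES library, and these were the 4 flank sites. A further 5 were higher (96, 213, 220, 234 and 299), and 14 overlapped. Position 243 had 20%, 20% and 30% in REST_NP and 80%, 60% and 70% in REST_ES. Position 220 had 20%, 10% and 30% in REST_NP and was listed at 0 in each REST_ES library. Position 299 went the other way from the flank, at 60% in each REST_NP library and 50%, 40% and 40% in REST_ES.

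At these sites pool 6 gave the same construct flanks of 77.1%, 58.9% and 68.2% and windows of 23.3%, 48.1% and 11.5%. Its flank overlapped that of REST_ES, while its window was above that of REST_ES in every library. Over the 4 low stretch sites listed in all groups, REST_NP had 0%, 2.5% and 2.5% and REST_ES was listed at 0 in every library. The pool 6 libraries had 20.6%, 43.9% and 6.89% at these sites.

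In unphased, nuc and non_nuc, the motif construct with the profile most like that of REST was CTCF, the zinc finger protein of insulators. The root mean square difference of mean site methylation between REST and CTCF was 5.99 percentage points over 14 shared sites in unphased, 5.56 over 35 in nuc and 3.04 over 31 in non_nuc. No shared site lies in the unphased window, and only position 195 lies in that of nuc and non_nuc. The likeness to CTCF is thus one of the surrounding sequence. Window means in unphased were 7.45% with REST and 32.6% with CTCF, whose edge sites were at 61.2% and 68.7%. BANP, which binds CpG island promoters, came next in all 3 classes, at 8.44, 11.4 and 8.58 percentage points. HIC2 (15.1, over 9 shared sites) was the third in unphased, and TRP53, the p53 protein, was the third in nuc (15.8) and non_nuc (9.95). The median over all motifs compared was 28.5 in unphased, 25.5 in nuc and 14.9 in non_nuc. In tiles CTCF was nearest for 1 of the 14 REST constructs, CTCF_tile4_REST, at 8.83 percentage points. The nearest construct held BANP for 4 (tile 3 of the CTCF backbone and tiles 3, 4 and 5 of the REST backbone, at 6.56 to 8.47), OctSox for 4 (tiles 1, 2 and 5 of the CTCF backbone and tile 2 of the REST backbone, at 3.13 to 10.2) and BHLHE40 for 1 (REST_tile1_REST, at 4.37). For the other 4 it was REST in the other backbone, at 4.48 for tile 7 and 5.70 for tile 6. Tiles and backbones in brackets are those of the REST construct. The nearest construct lay at another tile for CTCF_tile5_REST (CTCF_tile4_OctSox) and REST_tile4_REST (REST_tile3_BANP). It lay in the other backbone for REST_tile1_REST (CTCF_tile1_BHLHE40), REST_tile2_REST (CTCF_tile2_OctSox) and REST_tile5_REST (CTCF_tile5_BANP). CTCF_tile5_REST and REST_tile4_REST were in pool 6. For REST constructs of that pool the raised low stretch is among the sites compared, and its part in these likenesses was not tested.

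Set directly against CTCF, the mean over listed window sites was lower with REST in 2 of 3 classes, while the only shared site was not lower. In unphased the window was 7.08% and 7.82% with REST and 31.3% and 33.8% with CTCF, and in nuc it was 9.99%, 9.40% and 11.1% with REST and 16.8%, 15.4% and 14.3% with CTCF. The groups did not overlap in either. The adjusted p was 3.12e-31 in unphased and 0.00410 in nuc by limma, with lower windows than CTCF called for 4.96% of 121 and 4.35% of 23 constructs. In unphased the constructs were in different pools, so that pool and motif cannot be told apart. In non_nuc it was 6.66%, 19.8% and 12.8% with REST and 12.2%, 27.7% and 18.5% with CTCF, which overlapped (adjusted p = 0.169 in limma, with 0% of constructs called lower, 0 also at an unadjusted p under 0.05). The positions averaged are not the same. In unphased the CTCF window had 61.2% and 68.7% at its edge sites, 128 and 154. Its inner sites had 9.05% to 13.3%, and the REST sites 4.20% to 12.6%. In nuc the CTCF window had 28.5% and 50.7% at its edge sites, 177 and 203, and 3.21% to 3.80% at its 4 inner sites, below the lowest REST site. At position 195, the only window site listed for both, nuc REST had 6.50%, 7.34% and 9.53% and CTCF 6.17%, 2.42% and 1.38%, and in non_nuc REST had 5.29%, 17.5% and 10.6% and CTCF 2.79%, 18.5% and 5.57%. REST lay above CTCF there in every library of nuc and overlapped with it in non_nuc, and this site was not tested.

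Flanks of REST were at or below those of CTCF. In nuc they were 81.0%, 85.0% and 85.9% with REST and 86.8%, 90.2% and 91.4% with CTCF, whose ranges did not overlap (−0.66 ± 0.25 log2, SE, adjusted p = 0.00991 in limma, where 100% of constructs were called lower than CTCF). The call was lost on the fraction scale (adjusted p = 0.0841) and without replicate 2 (0.0958), both by limma. In unphased REST had 82.3% and 84.5% and CTCF 84.7% and 90.3% (adjusted p = 0.206 in limma, 99.2% of constructs called lower). In non_nuc the means were 80.04% ± 4.03 with REST and 81.8% ± 6.35 with CTCF (SD, n = 3 each; adjusted p = 0.683 in limma, 82.6% called lower).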

How the data were processed

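The authors deposited a fraction per GCH cytosine of each construct, without counts, so no interval or lower limit could be set. Trimmomatic 0.32 is named for trimming, per the submitters' processing notes. For the aligner, the methylation caller and the genome build, nothing is given in the sources used here. REST constructs, lists and tests were chosen with earlier results of these data known.

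A site entered only where all libraries of its construct listed it. The window of unphased, nuc and non_nuc was bounded by adjacent sites present in 90% of constructs or more, and its edges were sites of at least 2 constructs. The tiles window covered sites that some constructs of a tile and backbone lack, and flank sites up to position 45 were left out. Region means f were turned into M-values, log2((f + 0.01)/(1 − f + 0.01)), and tested in limma 3.58.1 (R 4.3.3), with Benjamini-Hochberg adjustment over all rows of a class, at an adjusted p under 0.05. In many of these fits limma gave every row the same standard error, a spread shared by all constructs. Percentages called refer to all rows of a fit. Scripts were tested on simulated data.

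The named items were fixed by rule: every REST construct with its references, the lowest window site and highest flank site of each, CTCF, and the 3 motif constructs most alike per class, over at least 5 shared sites. Replicate numbers marked the same library for REST and no motif in nuc and non_nuc and for 4 REST and REST_r pairs. There, deviations from the group means correlated at −0.210 to 0.763 (median 0.232), against −0.397 to 0.525 (median −0.143) for pairs in different pools. The main tests treated groups as unpaired, and the alternatives are given in the closing section. The files on CGH cytosines were not used.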

Additional observations from a re-analysis of the deposited data

Results flagged for a closer look

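Results on REST that differed between the nuc and non_nuc contexts are listed here, each by limma's interaction term with Benjamini-Hochberg adjustment, n = 3 libraries per construct and context. At the flank, the REST effect against no motif was larger in nuc by 1.20 (log2). At the window, it was less negative in nuc by 2.07 (log2), where the window without a motif is 1 site, position 189. At single sites, the effect at position 213 was larger in nuc by 1.92 and at position 221 by 1.61 (log2). The effect in nuc was below that in non_nuc by −1.75 at position 292, −2.17 at position 297, −2.09 at position 303 and −1.89 at position 313 (log2). Groups of 2 or 3 libraries were too small for a check of single libraries that stand out.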

How the results depend on the processing

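Of 28 main results, 24 kept their direction and their side of the threshold under every alternative run. The REST flank against CTCF in nuc was −0.0553 on the fraction scale, no longer past the threshold, and ranged from −0.70 to −0.63 (log2) when replicates were left out in turn. Among tile pairs with REST_r, 3 flanks and 3 windows passed without pool 6, as only 3 pairs were left, and 2 to 4 windows passed when replicates were left out, with 2 without replicate 1. The REST flank effect of nuc over non_nuc ranged from 0.89 to 1.46 (log2) when replicates were left out. The cause of these changes was not tested.

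The replicate block changed no call on a flank or window against no motif, REST_r or CTCF. In unphased, where replicate numbers do not pair REST with the construct without a motif, the paired fit called 11 in place of 12 single sites. In nuc it called 10 in place of 11 higher sites. Of 100 single tile pairs and sites, 83 kept their call throughout. With 2 libraries, leaving out a replicate in unphased gave a value with no test. Tiles against no motif were not run. Depth is unknown, so sites with few reads could not be told from others.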
